A study of Mus musculus with 3 samples.

Results

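Peaks of the nuclear receptor NR2F2 (COUP-TFII) were examined at 41 genes that encode other nuclear receptors. A receptor gene was counted as bound when it was the gene with the nearest transcription start site (TSS) to a peak, or when a peak lay within 50 kb of one of its start sites. By this rule 28 of the 41 receptors had a peak and 13 had none. The bound receptors held 41 peaks among the 10069 in all, and no peak was shared between receptors. Start sites were those of curated RefSeq transcripts on GRCm38, the assembly that mm10 coordinates refer to.

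The chromatin came from whole testes that were taken from E14.5 embryos (an embryonic stage) of CD-1 mice, with no mutation or treatment named in the labels. The mesonephros was removed, and the testes were frozen and pooled, so each library averages over several embryos and over every cell type of the testis. An antibody to COUP-TFII was used for 2 ChIP replicates, described as independent experiments, and 1 library of input chromatin was sequenced without immunoprecipitation. Reads were counted at peaks only, so the tissue could not be checked against the expression of marker genes.

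Nuclear receptors are transcription factors that share a zinc-finger DNA-binding domain and, in most members, a pocket for a small lipid-soluble ligand such as a steroid, thyroid hormone or retinoic acid. Many of them recognise variants of the same short hexamer, singly or in pairs, and many bind as heterodimers with a retinoid X receptor. NR2F2 is an orphan receptor, meaning that it was named before any ligand was known, and in the fetal testis it is known from the interstitial cells. It binds the hexamer AGGTCA or GGGTCA, called a half-site here, and a longer form, AGAGGTCA or AGGGGTCA, called the extended site here.

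Stretches of sequence within the receptor peaks are shown because they carry these sites. The first comes from the strongest receptor peak, at the Nr2c1 start site, and was chosen after its counts were seen; the others are from peaks with an extended site or with 2 half-sites on one strand 1 base apart. All were read from RefSeq GRCm38, 5′ to 3′, and capitals mark half-sites and extended sites. Coordinates and strands are Nr2c1 chr10:94147979-94148007 (+), Nr1h2 chr7:44548783-44548812 (−), Rxrb chr17:34027854-34027918 (+), Nr1h4 chr10:89491466-89491525 (+), Nr5a2 chr1:137374935-137374994 (+) and Esrrg chr1:187937650-187937721 (−).
Nr2c1: gggtgGGGTCAcgaactcTGACCCccacc
Nr1h2: gcagagggttcAGGGGTCAcggcggcgtat
Rxrb: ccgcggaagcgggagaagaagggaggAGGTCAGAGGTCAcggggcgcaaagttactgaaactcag
Nr1h4: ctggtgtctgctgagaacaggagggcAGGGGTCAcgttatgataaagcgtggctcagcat
Nr5a2: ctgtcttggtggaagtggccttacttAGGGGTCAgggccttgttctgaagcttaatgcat
Esrrg: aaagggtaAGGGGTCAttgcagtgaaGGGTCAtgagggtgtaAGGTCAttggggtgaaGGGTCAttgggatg

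In the Nr2c1 sequence both half-sites pointed toward each other, with 7 bases between them. This inverted repeat began 53 bases downstream of the annotated start site, in the 5′ UTR. The same arrangement, searched after the Nr2c1 sequence was seen, was found in 6 of 10064 peaks on chromosomes (0.0596%), with that of Nr2c1 as 1 of the 6, and in 2 of 20128 windows of the same length 2 kb to either side of the peaks (0.00994%). The Rxrb sequence carried a direct repeat of half-sites 1 base apart, and its second half-site was also part of an extended site. The Esrrg sequence carried 4 half-sites on one strand in steps of 16 bases, the first of them in an extended site, and 2.24% of all peaks had at least 4 half-sites. The Nr1h4 and Nr5a2 sequences each carried 1 extended site on the strand shown.

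The 28 bound receptors were 68.3% of the 41, whereas 57.9% of 21000 protein-coding genes met the same rule. Of the 41, 18 receptors (43.9%) were the nearest gene to a peak, compared with 33.2% of protein-coding genes. The other 10 had a peak within 50 kb that lay nearer to the start site of another gene. A peak within 1 kb of a start site was found at 9 receptors (22.0%), compared with 28.1% of protein-coding genes. Receptor genes had a median of 2 curated start sites and protein-coding genes a median of 1, and a gene with more start sites has more chances to meet the rule. Among genes with more than 1 start site, 17 of 22 receptors (77.3%) and 70.6% of protein-coding genes had a peak. Among those with 1 start site, 11 of 19 receptors (57.9%) and 55.2% of protein-coding genes had one. For the nearest-gene count the order of the shares turned, with 14 of 22 receptors (63.6%) and 45.5% of protein-coding genes at more than 1 start site, but 4 of 19 receptors (21.1%) and 30.6% of protein-coding genes at 1 start site. These shares are descriptions without a test, and the part that start site number plays in the receptor share was not tested.

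**Figure D1:**
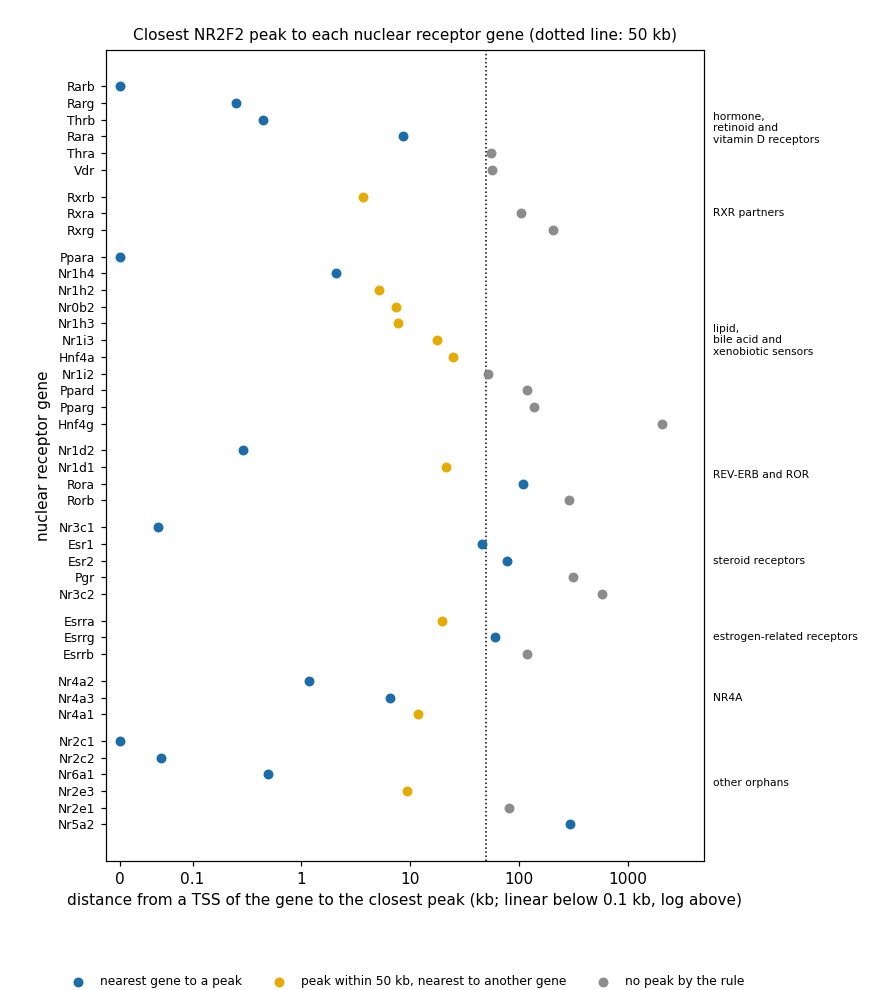
Distance in kb from the start sites of each of the 41 nuclear receptor genes to the closest NR2F2 peak, grouped by the role of the receptor, with the axis linear below 0.1 kb and logarithmic above. Blue points are the 18 receptors that are the nearest gene to a peak, yellow points the 10 with a peak within 50 kb that is nearest to another gene, and grey points the 13 without a peak by the rule. For Rora, Esr2 and Nr5a2 the closest peak is nearest to another gene and lies beyond 50 kb.

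Across the whole series the counts at peaks summed to 73251 in the input, 426784 in ChIP replicate 1 and 364261 in ChIP replicate 2. These sums are not sequencing depths, so a ratio of ChIP to input is known only up to the unknown ratio of depths. The receptor peaks had a median of 7 input counts (range 1 to 21), 34 counts in ChIP replicate 1 (13 to 185) and 30 in ChIP replicate 2 (12 to 182). Medians over all peaks were 7, 37 and 31. Peaks were called on the merged ChIP reads, so a ChIP count above input is in part what selected them.

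Both ChIP counts exceeded the input count at 41 of 41 receptor peaks and at 99.9% of all peaks. The median ratio of ChIP to input, with 0.5 added to each count, was 4.69 ± 0.435 (SD, n = 2) at receptor peaks and 4.75 ± 0.505 (SD, n = 2) over all peaks. Within replicate 1 these medians were 5.00 and 5.11, and within replicate 2 they were 4.38 and 4.39. The 22 peaks nearest to a receptor had a median ratio of 4.07 ± 0.183 (SD, n = 2). The 19 peaks near a receptor but nearest to another gene had a higher one, 5.38 ± 0.229 (SD, n = 2), and the order was the same in both replicates. This difference was not tested, and peaks are not replicates. Of the 19, 10 (52.6%) overlapped the nearest start site or lay up to 1 kb upstream of it, and 7 of the 22 (31.8%) did. Over all such peaks of the series the median ratio was 5.08 ± 0.762 (SD, n = 2). The part that this context plays in the difference was not tested.

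The quasi-likelihood test of edgeR was used to ask which peaks had a ratio of ChIP to input different from that of the typical peak, a question that needs no depth. One receptor peak, that of Nr2c1, was higher at an adjusted p under 0.05, and 1.53% of all peaks (154) were. That background depended on the setting, with 102 peaks called without normalisation, 39 with DESeq2 size factors and 22 by DESeq2. None was lower by the edgeR test, compared with 0.0497% of all peaks. At an unadjusted p under 0.05, 3 of 41 receptor peaks differed, all of them higher, and 10.4% of all peaks differed in either direction. The 3 were those of Nr2c1, Esrra and Rxrb. The log2 ratio of receptor peaks relative to the typical peak ranged from -0.99 to 2.61 with a median of -0.07, and the median of all peaks was 0.02.

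If the libraries are taken as equally deep, ChIP was above input at 37 of 41 receptor peaks (90.2%) by edgeR at an adjusted p under 0.05, and at 80.7% of all peaks. The order of these shares depended on the test, since DESeq2 called 22 of 41 (53.7%) and 61.0% of all peaks, and edgeR with robust fitting called 40 of 41 (97.6%) and 97.5% of all peaks. The 4 receptor peaks not called by the first test were a Rarb peak (adjusted p = 0.0938), the stronger Nr4a3 peak (adjusted p = 0.0579), the weaker Nr1h4 peak (adjusted p = 0.0695) and the Nr2e3 peak (adjusted p = 0.0579). With the ChIP libraries assumed to be 2 times as deep as the input, it was 0 of 41 and 0 of all peaks. At that depth 19 had an unadjusted p under 0.05 (46.3%, and 39.0% of all peaks). Even Nr2c1, at a log2 ratio of 3.92, was not called there (edgeR adjusted p = 0.122). A setting that calls no peak of the series cannot separate receptor peaks from others.

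An exact two-sided binomial test found 0 of 41 receptor peaks different between the ChIP replicates after adjustment, and 0.0993% of all peaks. At an unadjusted p under 0.05 it found 1, compared with 8.83% of all peaks.

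**Figure D2:**
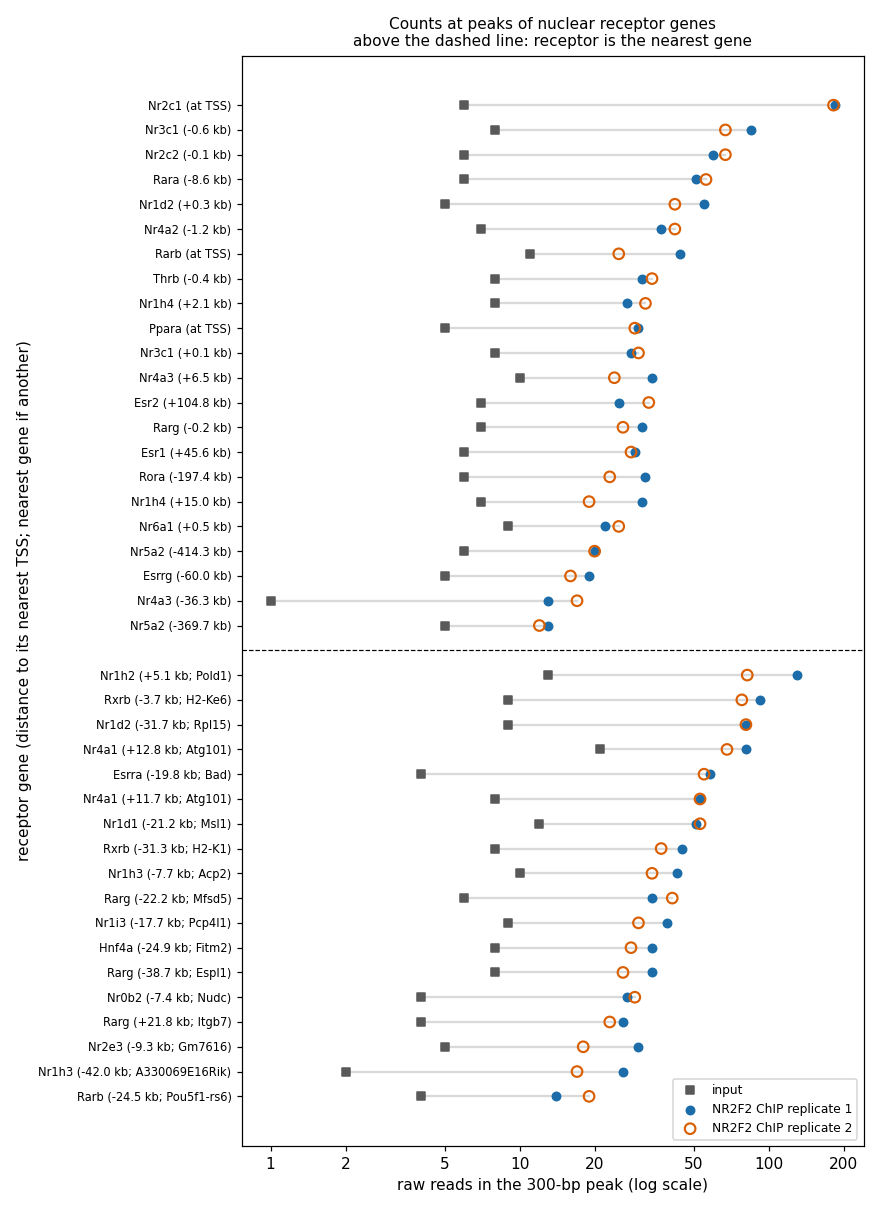
Raw reads per 300-bp peak (log scale) in the input (grey squares), ChIP replicate 1 (blue) and ChIP replicate 2 (orange rings) at 40 of the 41 receptor peaks, sorted by summed ChIP count within those nearest to the receptor (above the dashed line) and those nearest to another gene, which is named. Both ChIP counts lie above the input at every peak shown, and the Nr2c1 peak stands at the top with 185 and 182 counts.

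Among the receptors for thyroid hormone, retinoic acid and vitamin D, 4 of 6 had a peak, and each of the 4 was the nearest gene to 1. The group held 8 peaks, and 4 of them were nearest to the receptor. For this family and those below, 57.9% of protein-coding genes met the same rule. A peak within 1 kb of a start site was present at 3 of them, Thrb, Rarb and Rarg. Rara, Rarb and Rarg encode the retinoic acid receptors. The Rara peak (chr11:98951585-98951884) lay in an intron, 8587 bp from the nearest Rara start site and upstream of it, and held 6 input, 51 and 56 ChIP counts. Its log2 ratio relative to the typical peak was 0.84 ± 0.58 (SE), which did not pass the edgeR test (adjusted p = 0.695). The stronger Rarb peak (chr14:16575280-16575579) overlapped a start site and held 11 input counts, 44 counts in ChIP replicate 1 and 25 in ChIP replicate 2.

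Rarg had 4 peaks, more than any other receptor. Its strongest, 22176 bp upstream and nearest to Mfsd5, held 6 input, 34 and 41 ChIP counts. The peak closest to Rarg, 249 bp upstream of a start site, held 7 input, 31 and 26 ChIP counts, so both replicates were lower there than at the strongest peak. Thrb, one of the thyroid hormone receptor genes, had 8 input, 31 and 34 ChIP counts at a peak 445 bp upstream of a start site. Thra, the other thyroid hormone receptor gene, had no peak by the rule. Its closest, at 54.8 kb and nearest to Msl1, held 12 input, 51 and 53 ChIP counts and also lay 21192 bp from Nr1d1. Vdr, the vitamin D receptor gene, had its closest peak at 55.9 kb, with 5 input, 21 and 17 ChIP counts.

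Of the retinoid X receptor genes, which encode the common heterodimer partners, 1 of 3 had a peak. Rxrb had 2 peaks, neither of them nearest to it. The stronger (chr17:34027802-34028101) overlapped the start site of H2-Ke6, 3711 bp upstream of Rxrb, and is the one with the direct repeat printed above. It held 9 input, 92 and 78 ChIP counts and ranked 376 of all peaks by summed ChIP count. Its log2 ratio relative to the typical peak was 0.92 ± 0.47 (SE), which did not pass the edgeR test (adjusted p = 0.475). Rxra and Rxrg had none, and their closest peaks lay at 104 kb (4 input, 58 and 50 ChIP counts) and 205 kb (7 input, 29 and 23 ChIP counts).

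The receptors that sense fatty acids, oxysterols, bile acids and foreign compounds had a peak at 7 of 11, and only Ppara and Nr1h4 were the nearest gene to one. Ppara, a regulator of fatty acid oxidation, had a peak overlapping its start site with 5 input, 30 and 29 ChIP counts. Nr1h4, the bile acid receptor FXR, had a peak 2067 bp downstream of its nearest start site with 8 input, 27 and 32 ChIP counts. A second Nr1h4 peak in an intron, the one with the extended site, held 7 input, 31 and 19 ChIP counts.

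Near the oxysterol receptor gene Nr1h2 (LXRβ), a peak that overlapped the start site of Pold1, with its midpoint in an intron (chr7:44548557-44548856), held 13 input, 130 and 82 ChIP counts, the highest ChIP sum of the receptor peaks after Nr2c1. This was the receptor peak at which the ChIP replicates differed at an unadjusted p under 0.05 (exact binomial p = 0.0327, adjusted p = 0.512), with replicate 1 higher. Relative to the typical peak its log2 ratio was 0.70 ± 0.40 (SE), which did not pass the edgeR test (adjusted p = 0.568). Nr1h3 (LXRα) had a peak over the start site of Acp2, 7670 bp upstream, with 10 input, 43 and 34 ChIP counts. Its other peak had only 2 input counts against 26 and 17 ChIP counts, a ratio of 13.0 in replicate 1 (95% exact interval 3.25 to 113, counting error only) and 8.50 in replicate 2 (2.02 to 75.9).

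Nr1i3 encodes CAR, a sensor of foreign compounds. A peak 17677 bp upstream of it and nearest to Pcp4l1 held 9 input, 39 and 30 ChIP counts. Hnf4a, a regulator of liver and gut genes, had 8 input, 34 and 28 ChIP counts at a peak near Fitm2. Nr0b2 (SHP), which lacks the DNA-binding domain, had 4 input, 27 and 29 ChIP counts at a peak near Nudc. All of these peaks were nearest to another gene.

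The other 4 sensors had no peak by the rule. For Nr1i2 (PXR), a further sensor of foreign compounds, the closest peak lay at 51924 bp, just beyond the limit, and held 8 input, 73 and 93 ChIP counts. Ppard and Pparg, relatives of Ppara, had their closest peaks at 119 kb (9 input, 88 and 60 ChIP counts) and 138 kb (9 input, 45 and 38 ChIP counts). Hnf4g had the longest distance of the 41 receptors, 2068 kb, to a peak with 17 input, 128 and 67 ChIP counts. Of receptor peaks kept through the distance limit alone, the farthest was that of Nr1h3 at 41988 bp, and the next peak beyond the limit lay 51060 bp from Nr2c1, which already had another.

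Of the REV-ERB and ROR genes, whose products act in the circadian clock, 3 of 4 had a peak. Nr1d2 (REV-ERBβ) had one 289 bp downstream of a start site with 5 input, 55 and 42 ChIP counts. A stronger peak (chr14:18270828-18271127) lay 31722 bp upstream of Nr1d2 over the start site of the ribosomal protein gene Rpl15, with 9 input, 81 and 81 ChIP counts. Against the typical peak its log2 ratio was 0.85 ± 0.47 (SE), which did not pass the edgeR test (adjusted p = 0.553). Nr1d1 (REV-ERBα) had the peak near Msl1 described above for Thra. Rora had a peak in an intron, 197384 bp from its nearest start site, with 6 input, 32 and 23 ChIP counts. Rorb had none, with the closest at 288 kb (6 input, 36 and 39 ChIP counts).

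Of the 5 steroid receptor genes, 3 had a peak, and all 3 were the nearest gene. Nr3c1, the glucocorticoid receptor gene, had 2. The stronger lay 572 bp upstream of its nearest start site in an intron, carried an extended site, and held 8 input, 85 and 67 ChIP counts. The weaker lay 52 bp from a start site with 8 input, 28 and 30 ChIP counts, so both replicates were higher at the stronger peak while the input counts were equal. Relative to the typical peak the stronger had a log2 ratio of 0.93 ± 0.50 (SE), which did not pass the edgeR test (adjusted p = 0.525).

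The peaks assigned to the estrogen receptor genes lay far from their start sites. Esr1 had a peak in an intron at 45602 bp with 6 input, 29 and 28 ChIP counts. The Esr2 peak lay outside the gene, at 104809 bp in an intron of Syne2, and held 7 input, 25 and 33 ChIP counts. A peak closer to Esr2, at 77.9 kb but nearest to Mthfd1, held 13 input, 60 and 64 ChIP counts. Pgr, the progesterone receptor gene, and Nr3c2, the mineralocorticoid receptor gene, had no peak by the rule. Their closest lay at 315 kb (4 input, 44 and 56 ChIP counts) and 572 kb (5 input, 53 and 63 ChIP counts).

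Among the estrogen-related receptors, orphan relatives of the estrogen receptors that act on genes of energy metabolism, 2 of 3 had a peak. The Esrra peak (chr19:6941559-6941858) lay 19751 bp upstream, in an intron of Gpr137 and 3 bp from the start site of Bad, and held 4 input, 58 and 55 ChIP counts. Its log2 ratio relative to the typical peak was 1.50 ± 0.65 (SE), second in size among the 10 strongest receptor peaks but not past the edgeR test after adjustment (adjusted p = 0.332). Esrrg had the peak with the row of half-sites printed above, in an intron 59998 bp from its nearest start site. It held only 5 input, 19 and 16 ChIP counts, so this array of sites lay in one of the weaker receptor peaks. Esrrb had none, with the closest at 119 kb (8 input, 67 and 57 ChIP counts).

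All 3 NR4A genes, immediate early genes whose products act in steroid-producing cells among others, had a peak, where 57.9% of protein-coding genes did. At 0 of the 3 did a peak lie within 1 kb of a start site. Nr4a1 had 2 neighbouring peaks, both nearest to Atg101. The stronger (chr15:101279598-101279897) held 21 input, 81 and 68 ChIP counts, with the highest input count of the receptor peaks. It was the only one of the 10 strongest receptor peaks with a negative log2 ratio relative to the typical peak, -0.49 ± 0.37 (SE), and it did not pass the edgeR test (adjusted p = 0.739). Nr4a2 had 7 input, 37 and 42 ChIP counts at 1179 bp upstream of a start site. Nr4a3 had 10 input, 34 and 24 ChIP counts at a peak in a coding exon. Its other peak had a single input count against 13 and 17 ChIP counts, a ratio of 13.0 in replicate 1 (95% exact interval 1.95 to 552) and 17.0 in replicate 2 (2.66 to 710).

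The remaining orphan receptors had a peak at 5 of 6. Nr2c1 and Nr2c2 encode TR2 and TR4, the testicular receptors, which are close relatives of each other and bind direct repeats of the half-site. The Nr2c1 peak (chr10:94147871-94148170) overlapped the start site and held 6 input, 185 and 182 ChIP counts. Both ChIP counts were the highest of any receptor peak, and the peak ranked 20 of 10069 by summed ChIP count. Its log2 ratio was 2.61 ± 0.42 (SE) above the typical peak (edgeR adjusted p = 6.81e-07), and the adjusted p ranged up to 0.0349 under the other settings that gave a value.

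The Nr2c2 peak (chr6:92092077-92092376) lay 57 bp upstream of a start site and held 6 input, 60 and 67 ChIP counts. The input counts of both testicular receptors were equal, and each ChIP count of Nr2c1 exceeded those of Nr2c2. For Nr2c2 the log2 ratio relative to the typical peak was 1.09 ± 0.56 (SE), which did not pass the edgeR test (adjusted p = 0.496). The difference between these peaks was not tested.

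Nr6a1, the germ cell nuclear factor gene, had 9 input, 22 and 25 ChIP counts at 492 bp from a start site. Nr2e3, known from photoreceptors, had 5 input, 30 and 18 ChIP counts at a peak nearest to Gm7616. Nr5a2 (LRH-1), a relative of the steroidogenic factor gene Nr5a1, had 2 distant peaks in its neighbourhood, of which the stronger lay 414284 bp away and held 6 input, 20 and 20 ChIP counts and an extended site. The weaker held 5 input, 13 and 12 ChIP counts and ranked 10059 of 10069, close to the least bound peaks of the series. Nr2e1 (TLX), known from neural stem cells, had none, with the closest at 81.1 kb (2 input, 44 and 31 ChIP counts).

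**Figure D3:**
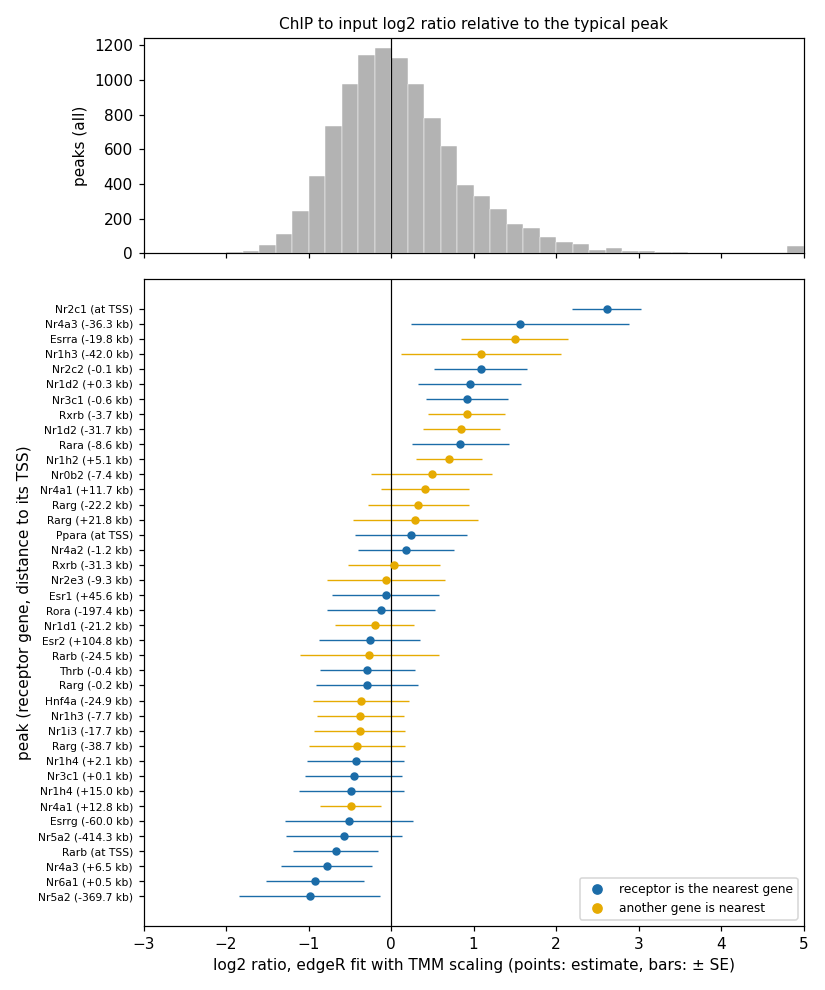
Top, all 10069 peaks by the log2 ratio of ChIP to input relative to the typical peak (edgeR with TMM scaling), with values above 5 counted in the last bar. Bottom, the same log2 ratio for 40 of the 41 receptor peaks, with its SE derived from the edgeR F statistic. Points are blue where the receptor is the nearest gene and yellow where another gene is. The Nr2c1 peak at 2.61 lies apart from the others, which spread around the median of all peaks, 0.02.

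Both groups of nearest genes held strong peaks, but the upper quartile of summed ChIP count over all peaks held 8 of the 19 receptor peaks nearest to another gene (42.1%) and 5 of the 22 nearest to the receptor (22.7%). The share of all peaks in this class, which includes ties, was 25.3%, and that of all peaks proximal to a start site was 31.5%. The 10 receptor peaks within 1 kb of the receptor's own start site had a median ratio of 4.79 ± 0.114 (SD, n = 2). The 12 nearest to the receptor but farther away had a median ratio of 3.80 ± 0.108 (SD, n = 2).

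By genomic context, 17 of 41 receptor peaks (41.5%) were proximal to the start site of the gene nearest to them, where 36.0% of all peaks were. Another 5 (12.2%) lay up to 10 kb upstream, compared with 4.34% of all peaks. A further 11 (26.8%) lay in the body of the nearest gene, downstream of its nearest start site, compared with 34.0% of all peaks. The other 8 (19.5%) were in none of these classes, compared with 25.7% of all peaks, and included the intronic peaks of Rora, Esrrg and Esr2. The median GC content was 61.3% at receptor peaks and 60.7% over all peaks.

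The extended site, on either strand, was present in 7 of 41 receptor peaks (17.1%, 95% Wilson interval 8.53% to 31.3%) and in 10.5% of all peaks, a share within that interval. They included peaks of Nr1h2, Nr1h4, Rxrb, Nr3c1, Nr5a2 and Esrrg. In windows of the same length 2 kb to either side, it was present in 1 of 82 for receptor peaks and in 2.80% for all peaks. A half-site alone, which every extended site contains, was present in 30 receptor peaks (73.2%, interval 58.1% to 84.3%), in 58.9% of all peaks and in 26.6% of the windows. The direct repeat with 1 base between was present in the Rxrb peak only (2.44%), and in 2.37% of all peaks and 0.0894% of windows. No half-site was present in 11 receptor peaks, 16 held 1 and 12 held 2, and the Nr2c1 peak was among those with 2 and had no extended site.

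**Figure D4:**
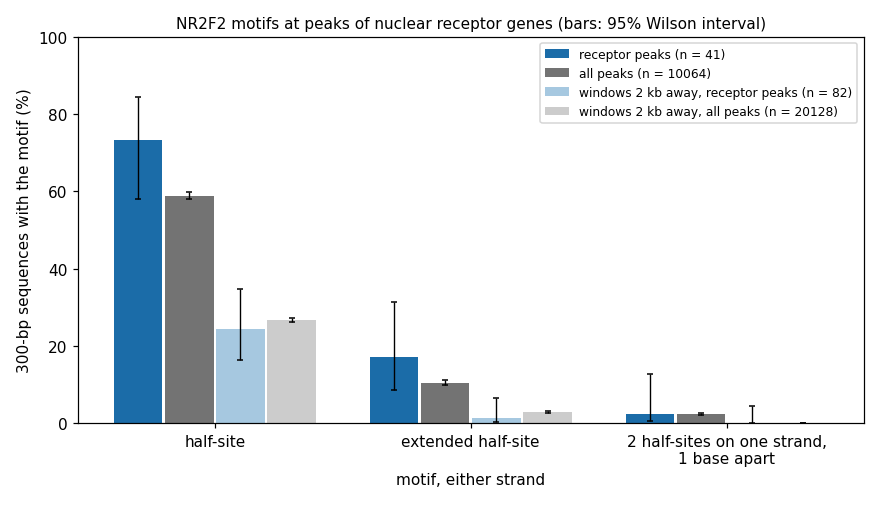
Share of 300-bp sequences with a half-site, an extended site or 2 half-sites on one strand 1 base apart, for the 41 receptor peaks, all 10064 peaks on chromosomes and the windows 2 kb to either side, with 95% Wilson intervals. A half-site was present in 73.2% of receptor peaks and 58.9% of all peaks, and the extended site in 17.1% and 10.5%.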

How the data were processed

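NR2F2 ChIP (2 libraries) and input (1 library) from E14.5 testes were deposited as raw counts per 300-bp peak, made by the authors in mm10. Per the submitters' processing notes, Trim Galore 0.6.7, Bowtie2, Picard 1.110, HOMER 4.11.1 and bedtools were used, with peaks called on merged ChIP reads and resized. For the assignment of reads to peaks, a rule was not given in the sources used here, and whole-library depth is unknown.

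Counts were tested with edgeR 4.0.16 (quasi-likelihood, R 4.3.3) over all 10069 peaks and all 3 libraries, once with TMM scaling (relative to the typical peak) and once at equal library sizes, with Benjamini-Hochberg adjusted p under 0.05. The single input was assumed to vary like the ChIP libraries, and p-values measure only the spread between these samples. The SE of a log2 ratio was its absolute value divided by the square root of the edgeR F statistic. It was therefore derived from the test and is not a separate measure of error. ChIP replicates were compared by an exact two-sided binomial test against the totals at peaks. Intervals cover counting error only, or for motif shares the sampling of peaks. Scripts used Python 3.11.15, and tests were checked on simulated data.

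Genes were taken from curated RefSeq transcripts (45756, of 26180 genes), and the distance of a peak is that of its closer edge to the nearest start site of the gene. A peak was proximal when it overlapped or lay up to 1 kb upstream of the nearest start site. Motifs were searched on both strands, and the 5 peaks on unplaced contigs were left out. Members and lists were chosen with earlier results of these data known. The rule was to give counts for the strongest peak of each bound receptor, fitted values for the 10 strongest receptor peaks and any past a threshold, and sequences for peaks with an extended site or direct repeat. As an exception, 1 of those 10, the strongest of its receptor, is counted in the totals but not reported here. Further receptor peaks, and counts at the closest peak of receptors without one, were added after their values were seen. The sequence of the Nr3c1 peak is not shown. Alternatives were other peak-to-gene rules, normalisations, assumed depths, count filters, DESeq2 1.42.0 and other motifs.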

Additional observations from a re-analysis of the deposited data

How the results depend on the processing

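Counting a receptor as bound only when it was the nearest gene gave 18 in place of 28, and the other rules gave 23 to 32. The Nr2c1 peak stayed the 1 receptor peak above the typical peak under every alternative that tested it, although DESeq2 gave an adjusted p for only 5 of the 41; with at least 10 input counts required it was not among the 7 peaks tested, and 0 were called. ChIP was above input at equal depth at 37 receptor peaks. With ChIP 2 times deeper it was 0, as for all peaks (19 at an unadjusted p under 0.05, 46.3%, and 39.0% of all peaks). With a ratio of 1 assumed for the lowest 1% of peaks it was 0, also as for all peaks (20 unadjusted, 48.8%, and 42.5% of all peaks). DESeq2 gave 22 (53.7%, 3 without an adjusted p, and 61.0% of all peaks). With at least 10 input counts, 6 of the 7 were called (85.7%, and 88.5% of all such peaks). The settings that gave 0 changed the assumed depth, but they called no peak of the series at any log2 ratio. They cannot separate receptor peaks from others. No receptor peak differed between replicates under any alternative run. The median ratio of 4.69 moved to 3.21 with 5 added to each count, 4.07 for the peaks nearest to a receptor and 3.70 with at least 10 input counts, and leaving out either ChIP replicate gave 4.38 to 5.00. The 7 peaks with an extended site became 30 with a half-site, 1 with the direct repeat, 2 in the central 100 bases and 4 nearest to the receptor. Of the 10 strongest receptor peaks none reversed, and all 10 lost the equal-depth call under both of the settings that gave 0, although their log2 ratios stayed positive (Nr2c1 log2 ratio 3.92 ± 0.26 SE, edgeR adjusted p = 0.122, and 3.98 ± 0.26 SE, adjusted p = 0.110). Assuming ChIP to be 2 times shallower gave 41 called receptor peaks, and scaling the replicates to each other gave 40, with 97.9% of all peaks called under each setting. Leaving out 1 ChIP replicate leaves no residual degrees of freedom, so only the median ratio was recomputed. No paired analysis was possible because the input carries no replicate number. A median of 7 input counts limits every ratio.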
